A study of Mus musculus with 4 samples.

Results

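The cytosolic ribosomal protein genes were chosen by name from the gene table: every row called Rpl or Rps with a number (with the suffixes a, x, l, al or l1 where a gene carries one), plus Rplp0, Rplp1, Rplp2 and Rpsa. This rule found 86 of the 52459 genes listed, 53 of the large subunit and 33 of the small subunit. Hyphenated rows, which are named as pseudogenes, and the kinases whose names begin with Rps6k were left out. The rule itself uses names only. Rps3a1 and Fau, which encode subunit proteins under other names, and Rack1, a signalling scaffold on the small subunit, fall outside the rule and are described apart. In the GENCODE vM21 annotation 83 of the 86 members are protein coding, Rpl6l and Rps12l1 are processed pseudogenes, and Rps4l is a transcribed processed pseudogene.

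The study asked how the transcriptome of intestinal stem cells (ISCs) changes with age in the mouse. Full-length RNA-seq was made from ISCs of WT C57/Bl6 animals of 2 months (ISC_2mth, 2 libraries) and 22 months (ISC_22mth, 2 libraries). Each library came from the sorted cells of a pool of 5 animals, so an individual animal has no value of its own, and the labels name no treatment or transgene for either age. The SM6 sort took small intestinal crypt cells without CD31 and CD45, with medium CD24, with CD166 and EPCAM, high in CD44 and EPHB2 and low in GRP78, and the RNA was copied by single primer isothermal amplification (SPIA) before sequencing.

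Ribosomal proteins join ribosomal RNA in the nucleolus and are exported as the large subunit, which forms peptide bonds, and the small subunit, which reads the mRNA. Their mRNAs are among the most abundant in dividing cells, and many begin with a run of pyrimidines, the terminal oligopyrimidine (TOP) motif, through which mTOR and Larp1 set how strongly they are translated. Crypt stem cells divide often and need a steady supply of ribosomes, and most members have many processed pseudogenes whose sequence resembles their own mRNA.

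The total count per library ran from 11662654 to 15975698. Mitochondrially encoded genes took 62.6% and 65.7% of the counts at 2 months and 73.8% and 72.9% at 22 months, and 3852178 to 4593004 counts per library came from genes not encoded in the mitochondrial genome. Values are given as normalized CPM (read counts brought to the same library size by the TMM method), on which 3 counts, the floor used for a value of 0, equal 0.199 to 0.246 CPM. Replicate pools were separate samples whose counts disagreed beyond sampling noise (chi-square per gene 9.42 over 15267 genes at 2 months, 7.11 over 14490 genes at 22 months). The 6 ISC markers Lgr5, Olfm4, Ascl2, Axin2, Smoc2 and Sox9 were detected in every pool, with a summed level between 1655 and 1941 CPM. Paneth cell markers (5 of 5 detected) summed to 685 and 521 CPM at 2 months and to 1595 and 587 CPM at 22 months, and enterocyte markers (5 of 5 detected) to 62.9, 75.9, 260 and 154 CPM in the same order. Of 6 leukocyte markers, Itgam alone passed the filter on low counts, at 10.2 and 13.0 CPM at 2 months and 19.2 and 20.6 CPM at 22 months (log2 fold change 0.78, edgeR FDR = 0.030), and the list summed to 10.5, 13.3, 20.1 and 21.0 CPM. The B cell marker Cd79a was at 0 in all 4 pools. Goblet cell markers (5 of 5 detected) summed to 1771 and 2338 CPM at 2 months and to 2406 and 1882 CPM at 22 months. ISC_22mth pool 1 thus held the highest Paneth, enterocyte and goblet sums and the lowest ISC sum. Its tuft sum (7.64 CPM) was also the highest, while the enteroendocrine sum was highest in ISC_2mth pool 2 (147 CPM).

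Ribosomal protein mRNAs were present at very unequal levels in both subunits. Of the 86 members, 79 passed the filter on low counts, 47 of the large and 32 of the small subunit. The filter asked for over 5 counts and over 1 CPM in 1 or more pools. Its CPM was taken on the total count, mitochondrially encoded genes included, without TMM. Rps27 thus passed with normalized CPM of 0.828, 0.596, 0.757 and 0.983. Level per length, in RPKM (normalized CPM per kilobase of exon, mean of the 4 pools), ran from 1.12 to 423 in the large subunit, with a median of 9.40, and from 0.758 to 114 in the small subunit, with a median of 14.2. The median over all 13692 genes tested was 2.15 RPKM. The RPKM values thus differed widely within each subunit. The exon length takes all annotated exons of a gene together, 6270 bases for Rps15a and 6256 for Rps24. The members tested also include Rps4l and paralogs, so the spread does not measure mRNA per copy of each protein.

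Rpl4, whose protein reaches into the tunnel through which the new peptide leaves, was the most abundant member at 423 RPKM. It alone took 17.5% and 19.6% of all counts on members at 2 months, and 22.5% and 25.2% at 22 months. Its gene (chr9:64173375-64178666, plus strand, GRCm38) also contains 5 annotated small nucleolar RNAs (snoRNAs). Rpl32 followed at 131 RPKM and the stalk protein Rplp1 at 93.9 RPKM. In the small subunit Rps15 (113.8 RPKM) and Rps26 (73.7 RPKM), which lies where the mRNA leaves the ribosome, were among the 3 most abundant members.

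At the other end, the 5S RNA binding protein Rpl5 stood at 1.12 RPKM, Rpl27 at 1.43 RPKM and Rpl28 at 1.88 RPKM. In the small subunit Rps27 (0.758 RPKM) and Rps6 (0.784 RPKM), the phosphorylation target of the kinases downstream of mTOR, were the lowest. Rps6 had 12 and 28 counts at 2 months against 14 and 15 at 22 months, and Rps27 had 12 and 9 against 10 and 12. The ages overlapped in both genes, and at this depth a modest difference between them was not detectable.

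The other 7 members did not pass the filter. Rpl23a had 10 and 8 counts at 2 months and 11 and 11 at 22 months, Rpl24 had 7 and 10 against 7 and 7, and Rpl6l had 7 and 11 against 5 and 8. Rpl3l, the muscle form of Rpl3, had 1 count in a single ISC_2mth pool. The testis form Rpl10l, the copy Rpl39l and Rps12l1 were listed at 0 in all 4 pools. Fau, which carries a ubiquitin-like protein joined to a subunit protein, was outside the rule and as low, with 11 and 7 counts at 2 months and 12 and 10 at 22 months.

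Reads of a member can also match its pseudogenes, and the sources used here do not name how reads aligning to several places were counted. For each member the share of its 50-nt stretches that also occur in transcripts of other genes was therefore measured in the GENCODE vM21 transcripts. The stretches of all annotated transcripts of a member were pooled, so the share over any single mRNA can differ. The median share over the 79 members tested was 22.7%, and it reached 81.1% for Rpl36 and 84.0% for Rpl35. Across the 79 members, Spearman's rho between this share and the RPKM was -0.26, a description over genes of the same 4 libraries. When levels were divided by the number of stretches found nowhere else, rather than by the whole exon length, rho with the RPKM was 0.97. Both measures hold the same counts, so this rho cannot show whether levels depend on shared reads. Of the low members named above, Rpl5 (48.9% shared) and Rps6 (43.8%) were well above the median share and Rps27 (25.0%), Rpl27 (23.5%) and Rpl28 (27.4%) near it, and the abundant Rplp1 had 60.0% shared. How the level of each member depends on the treatment of shared reads was not tested.

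**Figure D1:**
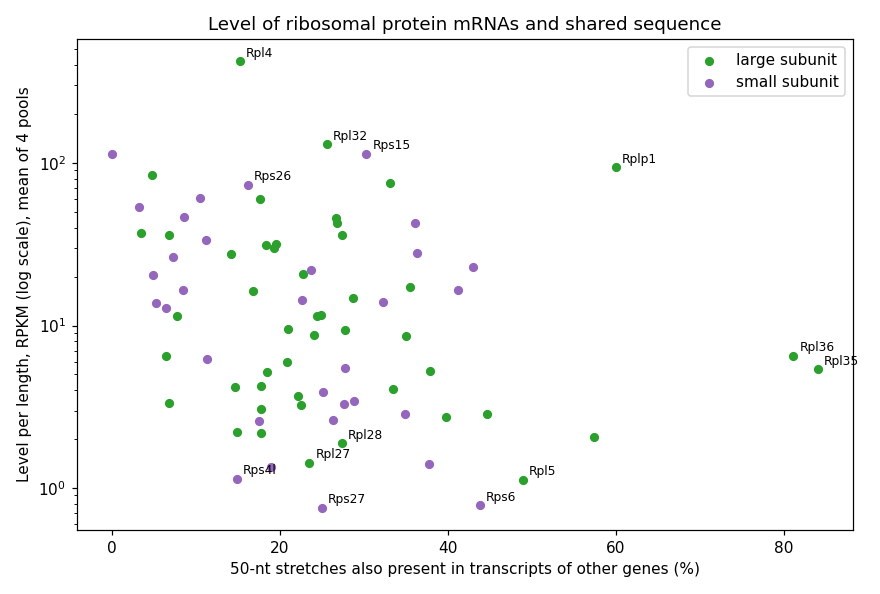
Level per length (RPKM, log axis, mean of the 4 pools) of the 79 members tested against the percentage of their 50-nt stretches that also occur in transcripts of other genes, large subunit in green and small subunit in purple. Rpl4 stands alone at 423 RPKM with 15.2% shared, and the low members Rpl5, Rps6, Rps27, Rpl27 and Rpl28 lie between 23.5% and 48.9%.

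Several ribosomal proteins come as pairs of paralogs, some of which can take the same place in the ribosome. Rpl22 stood at 37.0 RPKM and its paralog Rpl22l1 at 4.20 RPKM, Rpl7 at 9.51 and Rpl7l1 at 3.34 RPKM. Rpl3 stood at 8.61 RPKM and Rpl39 at 36.2 RPKM, while Rpl3l and Rpl39l gave no more than the single count above. In contrast, the p53-responsive Rps27l (33.6 RPKM) was far above Rps27 (0.758 RPKM), in counts 307, 409, 423 and 359 against 12, 9, 10 and 12. The X-linked Rpl36a (3.26 RPKM) and its autosomal copy Rpl36al (3.69 RPKM) stood close to each other, with counts of 64, 75, 58 and 95 against 52, 69, 66 and 83.

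The promoters of the members carried the sequence features for which the family is known. RefSeq promoter entries (250 bases before to 50 after the start, GRCm38.p6) were found for 63 of the 86 members, in 75 windows. A C at the listed start followed by at least 4 pyrimidines, the form of a TOP motif, stood in 13 of the 75 windows (17.3%) against 2.51% of all 32851 windows in the table. The letters CTTCCG, the core bound by ETS factors such as Gabpa, were found on either strand in 60.0% of member windows and 16.9% of all windows, and can share bases with a TOP run. The YY1 letters AAGATGGC stood in 10.7% against 2.75%, and TATAAA in 9.33% against 13.6%. A start listed a few bases away from the used one hides a TOP motif, so the 13 windows are those in which the run meets the listed start.

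The windows below show 30 bases before and 20 bases from the listed start of Rpl15 and Rpl4, which passed the test between the ages, and of Rps21, Rpl10 and Rps13, of low p, with a TOP run at the start in capitals, and then of 3 further members whose run is long. The positions are GRCm38.p6, and the order is that of transcription. Rpl15 lies at chr14:18270967-18271016 (minus strand), Rps21 at chr2:180257349-180257398 (plus), Rpl4 at chr9:64173357-64173406 (plus), Rpl10 at chrX:74270786-74270835 (plus) and Rps13 at chr7:116334171-116334220 (minus). Rpl35 lies at chr2:39005112-39005161 (minus), Rps10 at chr17:27635225-27635274 (minus) and Rps6 at chr4:86857348-86857397 (minus).
Rpl15: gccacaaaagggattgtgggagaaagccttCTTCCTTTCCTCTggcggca
Rps21: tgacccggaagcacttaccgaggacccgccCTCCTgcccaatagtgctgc
Rpl4: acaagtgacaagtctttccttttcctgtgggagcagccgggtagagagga
Rpl10: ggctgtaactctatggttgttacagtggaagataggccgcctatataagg
Rps13: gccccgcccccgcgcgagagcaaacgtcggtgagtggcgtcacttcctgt
Rpl35: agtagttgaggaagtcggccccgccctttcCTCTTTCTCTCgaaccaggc
Rps10: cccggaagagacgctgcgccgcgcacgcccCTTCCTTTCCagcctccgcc
Rps6: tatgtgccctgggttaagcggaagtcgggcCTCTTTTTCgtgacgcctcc

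Between the ages, 3 of the 79 members tested passed the threshold, and 1 of them, Rps4l, is annotated as a pseudogene and passed the filter on low counts through the ISC_2mth pools alone. The comparison of ages used the quasi-likelihood test of edgeR over all 13692 genes tested, with Benjamini-Hochberg adjustment (FDR) and a threshold of 0.05. Rpl4 and Rpl15 were higher and Rps4l lower in ISC_22mth, which is 3.8% of the members tested, against 2.26% of all genes tested (1.63% called higher and 0.628% called lower). The median log2 fold change (ISC_22mth over ISC_2mth) was 0.05 in the large subunit (interquartile range -0.04 to 0.26) and 0.09 in the small subunit (-0.03 to 0.25), against -0.005 over all genes (-0.29 to 0.23). In sorted bulk cells, fewer cells of a type and less RNA per cell cannot be told apart. Same-numbered pools of the ages are different animals, and p-values measure the spread between pools of 5 animals.

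In the large subunit, 31 of 47 members had a log2 fold change above 0 and 16 below, against 49.5% above 0 over all genes. Both ISC_22mth pools lay above both ISC_2mth pools in 12 members and below them in 9, against 24.0% and 23.6% of all genes tested, while the ages overlapped in the other 26. In the small subunit, 20 of 32 members were above 0 and 12 below, with 5 members entirely higher, 5 entirely lower and 22 overlapping. Over both subunits the ages did not overlap in 39.2% of members, against 47.6% of all genes tested. An unadjusted p under 0.05 was reached by 11 large and 5 small subunit members, 20.3% of those tested, against 16.9% of all genes. A log2 fold change beyond 0.5 in either direction was reached by 9 large and 2 small subunit members, and by 3326 of the 13692 genes tested.

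**Figure D2:**
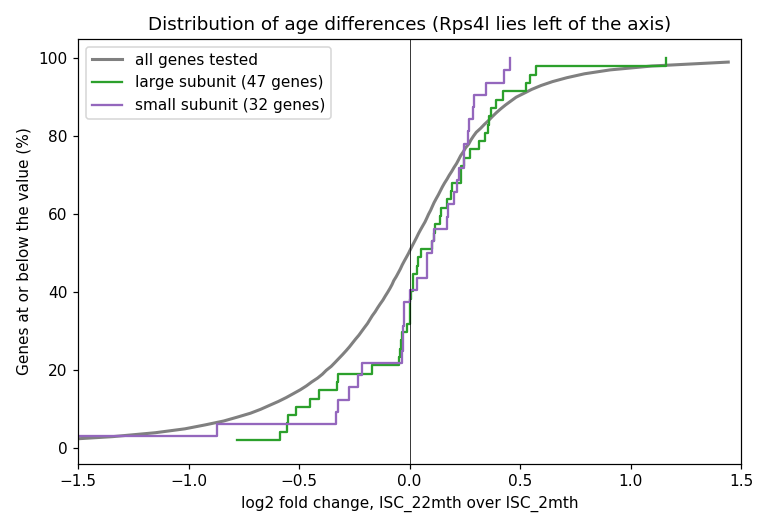
Cumulative percentage of genes (vertical axis) at or below each log2 fold change of ISC_22mth over ISC_2mth (horizontal axis) for all 13692 genes tested (grey), the 47 large subunit members (green) and the 32 small subunit members (purple). The member curves are steeper than the grey curve around 0, with medians of 0.05 and 0.09, and the green step at the right is Rpl15 at 1.16.

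Rpl4 stood at 623 and 758 normalized CPM in the ISC_2mth pools and at 842 and 1174 CPM in the ISC_22mth pools. The ages did not overlap, though the old pools differed from each other by more than the nearest old and young pools did. The mean rose from 691 ± 95.9 CPM (SD, n = 2) to 1008 ± 235 CPM, a log2 fold change of 0.55 (SE 0.13, edgeR FDR = 0.036). Without ISC_22mth pool 2 the log2 fold change was 0.29 (edgeR FDR = 0.14) and without ISC_2mth pool 1 it was 0.41 (FDR = 0.23). The call was also lost with DESeq2 (FDR = 0.48), with total counts (0.06, FDR = 0.72) and with offsets for GC content and length (0.44, FDR = 0.13).

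Rpl15, a large subunit protein mutated in some patients with Diamond-Blackfan anaemia, stood at 26.8 and 8.48 CPM in the ISC_2mth pools and at 40.8 and 37.9 CPM in the ISC_22mth pools. In counts these were 389 and 128 against 539 and 463, so that ISC_2mth pool 2 was far below the other 3 pools. The old mean of 39.4 ± 2.03 CPM was higher than the young mean of 17.7 ± 13.0 CPM (SD, n = 2 each), with a log2 fold change of 1.16 (SE 0.29, edgeR FDR = 0.041). Without ISC_2mth pool 2 the log2 fold change was 0.55 (edgeR FDR = 0.15), and without ISC_2mth pool 1 it was 2.22 (FDR = 7.9e-17). The call was lost with DESeq2 (FDR = 0.66), with total counts (0.64, FDR = 0.05) and with the GC and length offsets (0.99, FDR = 0.12). Its exons share 105 bases with Nkiras1 on the opposite strand, and the strand setting of the counting is not given in the sources used here.

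Rps4l, an autosomal copy of the X-linked Rps4x (chr6:148354656-148355598, plus strand, GRCm38) that the annotation lists as a transcribed processed pseudogene, had 22 and 42 counts in the ISC_2mth pools and none in either ISC_22mth pool. The young pools stood at 1.52 and 2.78 CPM. Taking the floor of 3 counts in each old library, the level was at least 9.1-fold lower in ISC_22mth (edgeR FDR = 0.0046). Rps4l passed the filter through the ISC_2mth pools alone and so had to differ, and nothing is read from its call. With limma voom it was not called (FDR = 0.066). Rps4x itself, with 41.2% of its stretches shared, stood at 26.5 and 33.8 CPM at 2 months and at 26.0 and 21.9 CPM at 22 months, with no overlap and a log2 fold change of -0.33 (SE 0.16, FDR = 0.31) that was -0.15 without ISC_2mth pool 2.

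**Figure D3:**
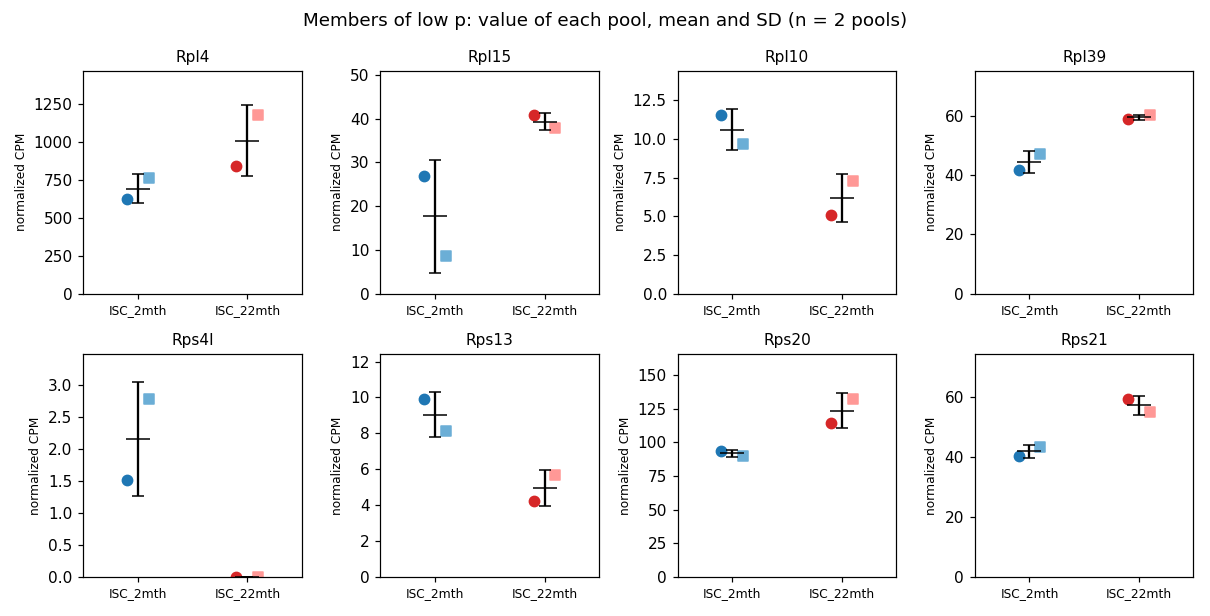
Normalized CPM of each pool (circle, pool 1; square, pool 2; blue, ISC_2mth; red, ISC_22mth) with the mean (long tick) and SD (bar, n = 2 pools) for 4 members of low p in each subunit, on axes that start at 0. Rpl15 in ISC_2mth pool 2 lies at 8.48 CPM, far below its partner at 26.8 CPM, and both ISC_22mth pools of Rps4l lie at 0.

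Below the threshold, the large subunit members of low p pointed both ways. Rpl10, an X-linked protein that joins the large subunit late in its assembly, stood at 11.5 and 9.67 CPM at 2 months and at 5.07 and 7.29 CPM at 22 months, with no overlap (log2 fold change -0.78, SE 0.24, FDR = 0.099). Rpl10 passed the threshold in 2 of 9 other settings, the replicate block (FDR = 0.040) and total counts (FDR = 0.00056). These settings called 4.55% and 34.0% of all genes, against 2.26% in the comparison itself. Leaving out 1 pool moved the log2 fold change of Rpl10 between -1.06 and -0.54. Rpl39, a small protein of the exit tunnel, went the other way, with 41.8 and 47.0 CPM against 58.9 and 60.2 CPM (0.42, SE 0.13, FDR = 0.10). Rpl7a had a log2 fold change of -0.51 (SE 0.23, FDR = 0.26), which was -0.24 without ISC_2mth pool 2.

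In the small subunit, Rps20 stood at 93.8 and 89.8 CPM in the ISC_2mth pools and at 114 and 133 CPM in the ISC_22mth pools (0.43, SE 0.12, FDR = 0.077). Rps20 passed the threshold in 4 of 9 other settings, limma voom (FDR = 0.044) and the replicate block among them. Rps21, whose TOP run is printed above, stood at 40.4 and 43.3 CPM against 59.5 and 55.0 CPM (0.45, SE 0.13, FDR = 0.078). In both genes the pools of an age were close to each other and the ages did not overlap. Rps13 was on the other side, with 9.93 and 8.15 CPM against 4.24 and 5.65 CPM (-0.87, SE 0.25, FDR = 0.077). Rps13 likewise passed the threshold in 4 of 9 other settings, total counts and the replicate block among them, and Rps21 in 2 of 9, the block among them. Total counts and the block called 34.0% and 4.55% of all genes, and the numbers of the pools are not a pairing. When 1 pool was left out, Rps20 passed without ISC_22mth pool 1, and Rps13 and Rps21 without ISC_22mth pool 2. The values of Rps27l were 21.2 and 27.1 CPM against 32.0 and 29.4 CPM (0.35, SE 0.16, FDR = 0.27), and without ISC_2mth pool 1 the log2 fold change was 0.18.

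**Figure D4:**
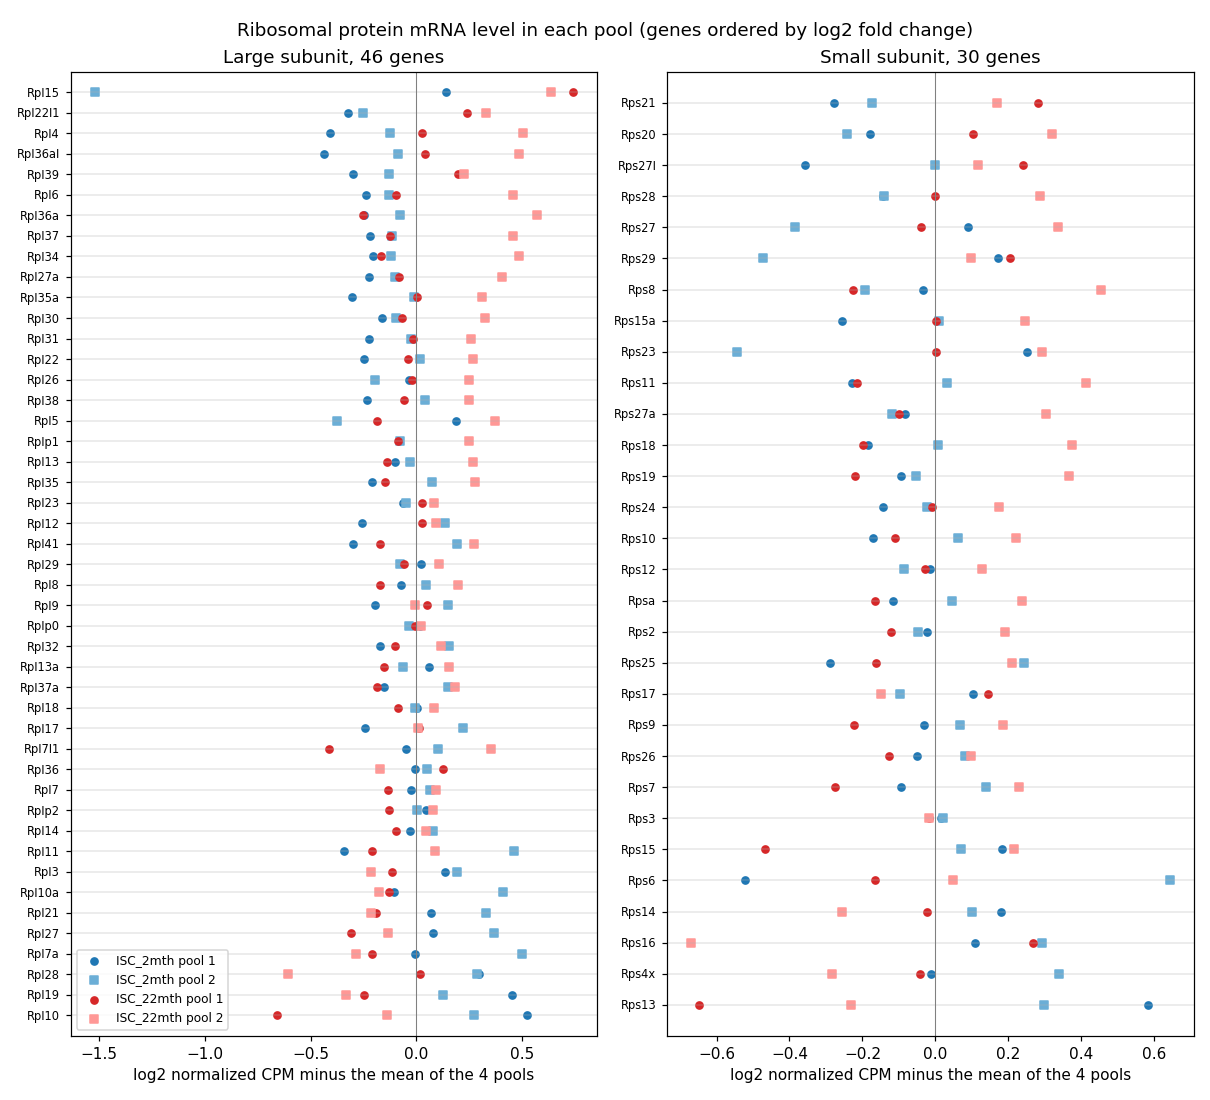
Level of the members in each pool, as log2 normalized CPM minus the mean of the 4 pools (horizontal axis), with members ordered by log2 fold change and 1 member of each subunit not reported here, large subunit on the left (46 genes) and small subunit on the right (30 genes, Rps4l left out because of its zeros). ISC_22mth pool 2 (light red squares) lies to the right of ISC_22mth pool 1 (dark red circles) in 59 of the 76 members drawn.

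None of 9 members of defined roles passed the threshold between the ages, against 2.26% of all genes tested, so nothing is read from this about the roles. The stalk proteins Rplp0, Rplp1 and Rplp2, which recruit elongation factors, had log2 fold changes of 0.01 (SE 0.12), 0.17 (SE 0.14) and -0.04 (SE 0.13). Rplp0, often used as a reference gene, was at 127 and 122 CPM in the ISC_2mth pools and at 125 and 127 CPM in the ISC_22mth pools. The proteins that bind the free 5S RNA and restrain Mdm2 when ribosome assembly fails had 0.19 (Rpl5, SE 0.32) and -0.17 (Rpl11, SE 0.29). Rps6 had -0.23 (SE 0.63), Rps2 0.08 (SE 0.14), Rpsa, also known as the laminin receptor, 0.08 (SE 0.21), and Rps27a, which is made as a fusion to ubiquitin, 0.21 (SE 0.28). None of these had an unadjusted p under 0.05 by edgeR, against 16.9% of all genes tested. The ages overlapped in all 9 genes, where they did not overlap in 47.6% of all genes tested. The standard errors of Rpl5, Rpl11, Rps6 and Rps27a, between 0.28 and 0.63, left room for sizeable differences in either direction.

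Among the paralog pairs, Rpl22l1 was higher at 22 months in both pools, with 6.55 and 6.89 CPM at 2 months and 9.69 and 10.3 CPM at 22 months, without passing the threshold (0.57, SE 0.22, FDR = 0.19). Rpl22 had 0.23 (SE 0.13), Rpl7 -0.04 (SE 0.15), Rpl7l1 -0.01 (SE 0.23), Rpl36a 0.37 (SE 0.30) and Rpl36al 0.53 (SE 0.29). Leaving out 1 pool moved Rpl22 between 0.07 and 0.38, Rpl36a between -0.10 and 0.73 and Rpl36al between 0.29 and 0.73, with the upper ends reached without ISC_22mth pool 1 and the lower ends without ISC_22mth pool 2. Rpl3 had -0.32 (SE 0.15, FDR = 0.27) with no overlap between the ages, and Rps27 had 0.28 (SE 0.78). Of the proteins outside the rule, Rps3a1 (54.4 and 59.0 against 71.9 and 74.5 CPM) had 0.37 (SE 0.12, FDR = 0.13) with 71.0% of its stretches shared, and Rack1 had 0.24 (SE 0.13, FDR = 0.36). Rack1 passed the threshold without ISC_22mth pool 1 (0.43, FDR = 0.014) and was at 0.02 without ISC_22mth pool 2 (FDR = 0.95).

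The sign of the family's median depended on which old pool was used. Over the 78 members with counts in every pool, ISC_22mth pool 2 was above ISC_2mth pools 1 and 2 by medians of 0.30 and 0.19 on the log2 scale, whereas the medians of ISC_22mth pool 1 over them were -0.01 and -0.09. The median ratio of ISC_22mth pool 1 over pool 2 was -0.28, and 61 of the 78 members were lower in pool 1. The same ratio over 13550 genes tested was -0.005. Between the ISC_2mth pools the median was -0.11, with 54 of 78 members lower in pool 1. The median shift between the old pools was thus larger in size than 3 of the 4 shifts between pools of different age.

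When ISC_22mth pool 1 was left out, the median log2 fold change was 0.18 in the large and 0.22 in the small subunit, and 6 members of each subunit passed the threshold, 15.2% of those tested against 4.73% of all genes at that setting. When ISC_22mth pool 2 was left out, the medians were -0.07 and -0.10, with 3 large and 4 small subunit members called, 8.86% of those tested against 5.05% of all genes. ISC_22mth pool 1 is also the pool with the highest Paneth, goblet and enterocyte marker sums (1595, 2406 and 260 CPM) and the lowest ISC marker sum. The part of these cells in the member values was not tested.

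Counts on all members together came to 1.18% (95% Wilson interval 1.17 to 1.19) and 1.27% (1.26 to 1.28) of the counts outside mitochondrially encoded genes in the ISC_2mth pools. In the ISC_22mth pools they came to 1.18% (1.17 to 1.19) and 1.47% (1.46 to 1.49). The age means were 1.23% ± 0.0645 and 1.33% ± 0.206 (SD, n = 2 each), so the ages overlapped on this denominator and differed by less than the spread between the old pools. Of all counts, mitochondrially encoded genes included, the members took 0.442% and 0.436% at 2 months and 0.310% and 0.399% at 22 months, where both old pools lay below both young pools. Without Rpl4 the shares were 0.974% and 1.02% against 0.918% and 1.10%. The large subunit took 0.676% and 0.756% against 0.715% and 0.916%, and the small subunit 0.505% and 0.516% against 0.468% and 0.559%. The amplified reads carry no molecular identifiers and do not stand for independent molecules, so the intervals and floors given here cover counting error only.

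The ratio of large to small subunit counts was 1.34 and 1.47 in young pools and 1.53 and 1.64 in old pools, with no overlap. With Rpl4 left out, it was 0.931 and 0.983 in young pools, against 0.960 and 0.974 in old pools. Without Rpl4 both old values thus lay between the young values.

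Grouped by other properties, the members showed small medians, and their counts stand against 2.26% of all genes called, 49.5% above 0 and 16.9% with an unadjusted p under 0.05. A list of 18 members mutated in Diamond-Blackfan anaemia, a failure of red cell production, which does not cover every gene linked to it, was tested in full, and 14 of 18 were above 0, with a median of 0.17 and 1 called (Rpl15). Of 8 proteins that line the peptide exit tunnel or its mouth, 7 were tested, with a median of 0.23 and 1 called (Rpl4). The 4 X-linked members, Rpl10, Rpl36a, Rpl39 and Rps4x, gave log2 fold changes of -0.78, 0.37, 0.42 and -0.33, and none was called by edgeR, limma voom or DESeq2, with 2 at an unadjusted p under 0.05. Members with an annotated snoRNA inside the gene had a median of 0.09 (28 tested, 1 called) and those without one 0.05 (51 tested, 2 called). An unadjusted p under 0.05 was reached by 39.3% of the former, 6 higher and 5 lower, and by 9.80% of the latter, a difference that was not tested. The 13 members with a TOP run at a listed start had a median of 0.19 with 9 above 0, and 46 tested members without one had 0.09 with 31 above 0.

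Base composition moved with the age difference, as it did over all genes. Spearman's rho between the GC content of the longest transcript and the log2 fold change was -0.32 over the 79 members and -0.23 over 13236 genes tested, a description over genes of the same 4 libraries. Among members with GC up to the family's median, the log2 fold changes had a median of 0.20, and 16 of 40 were entirely higher and 6 entirely lower in ISC_22mth. Those above it had a median of 0.007, with 1 of 39 entirely higher and 8 entirely lower, where 24.0% of all genes tested were entirely higher and 23.6% entirely lower. Rpl15 (43.2% GC), Rpl4 (48.2%) and Rps20 (41.3%) are on the low side, while Rps13 (44.7%) and Rpl10 (46.0%) were lower in ISC_22mth in spite of a low GC content. With offsets for GC content and length, 1.27% of members (Rps4l) and 1.40% of all genes were called, and the log2 fold changes of Rpl15 and Rpl4 were 0.99 and 0.44.

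**Figure D5:**
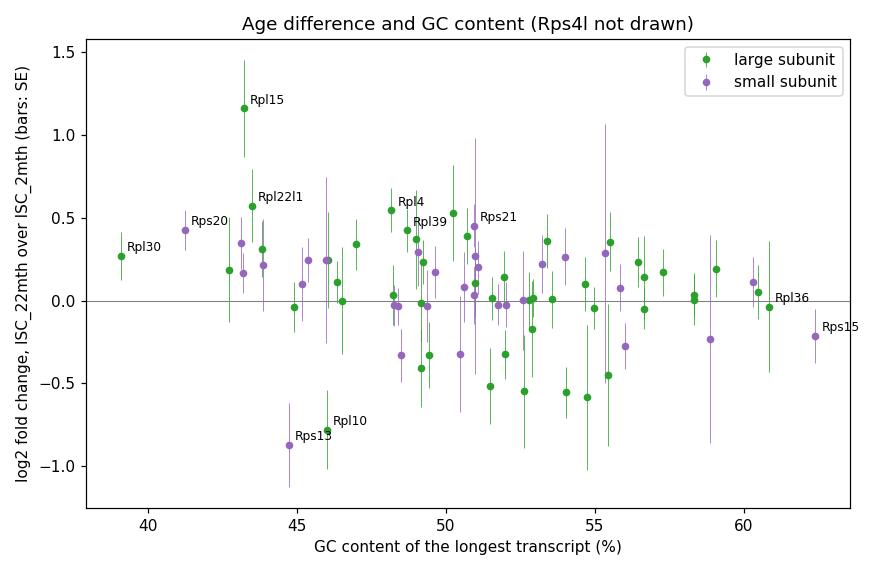
Log2 fold change of ISC_22mth over ISC_2mth (vertical axis, bars show the SE of the fit) against the GC content of the longest transcript (horizontal axis, percent) for the large (green) and small (purple) subunit members tested, with Rps4l left out. Values at low GC lie mostly above 0, as for Rpl15 and Rps20, with Rpl10 and Rps13 as the lowest points at -0.78 and -0.87.

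Genes that act with the members were taken from 3 further lists, whose counts stand against the same shares of all genes. Of 17 other mRNAs with a TOP motif, which encode translation factors and related proteins, all were tested, 13 were above 0, and the median was 0.14. The only one called by edgeR's quasi-likelihood test was Npm1, a nucleolar chaperone of ribosome assembly. Limma voom and edgeR's likelihood ratio test called 3 each, and DESeq2 called 2. Npm1 stood at 284 and 301 CPM in the ISC_2mth pools and 402 and 481 CPM in the ISC_22mth pools (0.59, SE 0.11, edgeR FDR = 0.010). Without ISC_2mth pool 1 its value was 0.55 (FDR = 0.060), with the GC and length offsets 0.43 (FDR = 0.097), and with total counts 0.11 (FDR = 0.54). Of 11 genes that control ribosomal protein mRNAs or their promoters, among them Mtor, Larp1, Myc, Gabpa and Yy1, none was called by edgeR, limma voom or DESeq2, with a median of -0.05, 3 of 11 above 0 and 3 with an unadjusted edgeR p under 0.05. The lowest p among them was that of Rptor, the mTOR partner that binds its substrates, at 23.4 and 26.6 CPM against 17.9 and 17.9 CPM (-0.48, SE 0.16, FDR = 0.13). Of 14 chaperones of subunit proteins and factors of subunit maturation and export, 13 were tested and none was called by the same 3 tools. Their median was 0.14, with 9 of 13 above 0 and 2 with an unadjusted p under 0.05.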

How the data were processed

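RNA of sorted ISCs was sequenced in 4 libraries, each from a pool of 5 animals. The authors trimmed the reads (Trimmomatic 0.30), aligned them with STAR 2.4.2a to GRCm38, used featureCounts to count the reads over GENCODE vM15 exons, and deposited raw counts per gene, without normalization. The filter and the test were those given in the text, run with edgeR 4.0.16 in R 4.3.3 (TMM, glmQLFit, glmQLFTest, no covariate, Benjamini-Hochberg FDR). RPKM used the union exon length of GENCODE vM21, matched by symbol for 47976 of 52459 genes. Members and gene lists were chosen with earlier results of these data known. Genes named are the members called, in each subunit the 3 of lowest p in each direction and the 3 of highest and lowest RPKM, members that failed the filter, members of defined roles, paralog pairs, and the subunit proteins that the rule leaves out, and from other lists those of lowest p. A few genes that this rule would name are not reported here. Alternatives were limma 3.58.1 voom with sample quality weights, DESeq2 1.42.0, edgeR's likelihood ratio test, RLE size factors, total counts, TMM on a table without mitochondrial genes and loci resembling ribosomal RNA, no filter, a replicate block, lowess offsets for GC content and length (span 0.3, 3 iterations), and leaving out each pool, where the lone pool of an age is assumed to vary like the others. The fit was tested on simulated counts. Replicate numbers did not pair the pools: over the genes tested, the correlation between ages of the difference between replicates was -0.00015. With 2 pools an age, an exact permutation test of 1 value cannot go below p = 0.333, so none was run. Protein sequences were not used here.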

Additional observations from a re-analysis of the deposited data

Results flagged for a closer look

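A set of 3 rows named as pseudogenes are not members and had more counts than their parent gene in every pool. Rpl10a-ps1 had 308 and 356 counts at 2 months and 349 and 332 at 22 months, where Rpl10a had 193, 288, 173 and 155. Rpl31-ps8 had 140 and 155 counts at 2 months and 172 and 152 at 22 months, against 56, 67, 59 and 66 for Rpl31. Rps16-ps2 had 74 and 74 counts at 2 months and 120 and 85 at 22 months, against 55, 65, 56 and 27 for Rps16. In the comparison of ages their log2 fold changes were 0.26, 0.35 and 0.68 (edgeR FDR = 0.42, 0.38 and 0.17). These 3 were singled out after their values were seen, and how reads that match both copies were divided between them was not tested. Of 275 rows named as pseudogenes of members, 38 had more than 3 counts in every pool and 76 were at 0 throughout. All 275 together held between 2.71% and 3.14% as many counts as the members, 32 were tested, and none was called by edgeR (2 had an unadjusted p under 0.05), limma voom or DESeq2.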

How the results depend on the processing

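Over 70 values for the subunits and the count shares under alternatives, 49 stayed within the spread between pools or within 1.5 times a count, and 21 moved. The number of large subunit members called (2) became 0 with DESeq2, 15 with total counts (all lower, where 34.0% of all genes and 32.9% of the members were called), 4 with the replicate block, 0 with offsets for GC content and length, and 1 without members of over 20% shared stretches. Leaving out 1 pool gave between 1 and 6. In the small subunit the number called (1) became 3 with the likelihood ratio test, 11 with total counts (all lower), 2 with TMM on a table without mitochondrial genes and loci resembling ribosomal RNA, 3 with no filter on low counts and 4 with the replicate block, and between 1 and 6 when 1 pool was left out. With limma voom it stayed at 1, but Rps20 was called in place of Rps4l. The share of all genes called also moved, from 2.26% to 1.44% with DESeq2, 1.40% with the offsets, 4.46% with the likelihood ratio test, 4.55% with the block, 2.29% with that TMM and 2.24% with no filter. The numbers of the pools are not a pairing, and the replicate block raised the calls over all genes from 309 to 623. With total counts the median of all genes shifted to -0.50, and the subunit medians came to -0.442 and -0.399, that is 0.05 and 0.10 above it. Leaving out 1 pool moved the large subunit median between -0.072 and 0.177 and the small subunit median between -0.099 and 0.218. The mean shares of counts on members (1.23% and 1.33%) were 0.439% and 0.355% of all counts, with mitochondrially encoded genes in the denominator, and 0.999% and 1.01% without Rpl4, an alternative chosen after seeing the data. Of 481 values for single genes, 403 kept their sign and their side of the threshold.

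Total counts lowered the log2 fold changes of genes across the table, and nothing is read from the sign turns under it, for Rack1 (-0.252), Rpl22 (-0.251), Rpl32 (-0.470), Rpl36a (-0.113), Rpl39 (-0.065), Rpl5 (-0.311), Rplp0 (-0.479), Rplp1 (-0.319), Rps2 (-0.413), Rps20 (-0.066), Rps21 (-0.038), Rps27 (-0.206), Rps27a (-0.275), Rps27l (-0.139), Rps3a1 (-0.120) and Rpsa (-0.406). With offsets for GC content and length it turned for Rpl32 (-0.013), Rplp0 (-0.017) and Rps15 (0.026). Leaving out 1 pool gave both signs for Rpl11 (-0.514 to 0.282), Rpl32 (-0.139 to 0.179), Rpl36a (-0.097 to 0.728), Rpl5 (-0.116 to 0.494), Rpl7 (-0.156 to 0.071), Rpl7l1 (-0.442 to 0.323), Rplp0 (-0.019 to 0.044), Rplp1 (-0.006 to 0.329), Rplp2 (-0.153 to 0.057), Rps15 (-0.593 to 0.088), Rps2 (-0.086 to 0.225), Rps26 (-0.145 to 0.079), Rps6 (-0.693 to 0.454) and Rpsa (-0.133 to 0.268). None of these genes passed the threshold in the comparison itself. Rps15 passed it without ISC_22mth pool 2 (-0.593, edgeR FDR = 0.0035).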
